A study of Mus musculus with 24 samples.

Results

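Mouse macrophages grown from bone marrow were kept for 24 h with interleukin-4, interferon-gamma or isoproterenol, or in medium alone, and the genes described here are those that moved the same way with all 3 activators. A gene was taken when its log2 difference from medium had 1 sign for each activator in each of 3 experiments, which makes 9 differences, and when the mean of the 3 activators also differed from medium. Of 10111 genes bright enough to test, 421 had 1 sign in 9 of 9 differences (143 higher, 278 lower, 4.16% of the genes tested). Of these, 237 also passed the test of the mean change, 86 higher (0.851% of the genes tested) and 151 lower (1.49%). These 237 genes are the members of the common response.

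The cells were bone-marrow-derived macrophages (BMDMs) of female Balb/c mice aged 8 to 10 weeks, a primary culture and not a cell line. The 24 arrays were Illumina mouse beadchips, with 6 arrays each for IL-4, IFN-gamma, isoproterenol and medium, laid out as 2 arrays for every group in each of the 3 experiments. The study placed isoproterenol-treated cells on a scale set by the other 2 agents, and the question here is which genes moved one way with all of them. Nothing in the labels tells whether both arrays of an experiment and group came from separate cultures or animals. Both were averaged before the main test, so its p-value covers the spread of the group differences among these 3 experiments alone. How far the experiments differ in animals or cultures is not given, and that spread may be technical.

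Interleukin-4 acts through its receptor and the factor STAT6 and gives the alternatively activated, M2 state. Interferon-gamma acts through its own receptor and gives the classically activated, M1 state with its antigen-presenting and antimicrobial genes. Isoproterenol is a synthetic catecholamine that opens the cAMP pathway through adrenergic receptors.

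Levels below are the deposited normalized intensities, which hold the array's background of about 137.3 units. The limit above which a gene counted as detected was 149.1 units, and 202 of the 237 members lay above it on all 24 arrays. Changes are log2 differences of background-adjusted values, so they exceed the ratio of the printed intensities for dim genes. The test was limma's moderated test of the mean of the 3 activators against medium with the experiment as a block, and adjusted p-values are Benjamini-Hochberg over all 10111 genes with a threshold of 0.05. The sign rule and the test use the same values, and the 3 differences of an experiment share its medium value, so the count of 9 is a description.

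The arrays lay on 4 slides. Slide 1 held all of experiment 1, slide 2 held the IL-4, IFN-gamma and medium arrays of experiment 2, slide 3 held the isoproterenol arrays of experiment 2 with the medium arrays of experiment 3, and slide 4 held the 3 activators of experiment 3. In experiment 3 activator and medium therefore cannot be told apart from slide, nor can isoproterenol and medium in experiment 2. Of the 9 differences 5 lie within a slide, and for isoproterenol only that of experiment 1 does. The median normalized intensity was 150.022 to 150.381 over the arrays, and 9229 to 9306 genes lay above the limit on each. Both arrays of an experiment and group correlated at 0.996 or above, except the IFN-gamma pair of experiment 1 at 0.977, whose second array stood apart. Without that array 228 genes met both criteria, and 210 of the 237 were still called (14.7% of all tested genes).

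Of 18 macrophage identity genes in the table, 13 were above the limit on all 24 arrays, among them Csf1r, Adgre1, Cd68 and Mertk, while Msr1 was above it on none. The summed level of the 18 was 77219 to 86666 on IFN-gamma arrays, below the 102770 to 105542 of medium arrays. It was 94603 to 101793 on IL-4 arrays and 101106 to 108079 on isoproterenol arrays. B-cell, erythroid and stromal markers had no gene above the limit on all arrays. The summed level of 9 neutrophil markers was 4481 to 5806 on IFN-gamma arrays, 2223 to 2646 on IL-4 arrays and 2656 to 3351 on isoproterenol arrays, against 2457 to 3304 on medium arrays, with S100a8 and S100a9 above the limit throughout. The summed level of 9 dendritic cell markers was 1983 to 2191 with IL-4, 1615 to 1819 with IFN-gamma and 1368 to 1403 with isoproterenol, against 1420 to 1486 in medium. The part of these markers in the common response was not tested, and fewer cells of a type cannot be told apart from less RNA per cell in these cultures.

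The common change was small for most members. Among the 86 higher members its median was 0.31 on the log2 scale (range 0.14 to 1.39), and among the 151 lower members its median was -0.29 (range -1.30 to -0.13), while the median over all tested genes was -0.02. A common change of at least 2-fold was reached by 6 members, 4 higher and 2 lower. In every activator the change was at least 1.2-fold for 25 members and at least 1.5-fold for 3. Of all tested genes 1522 (15.1%) were called for the mean of the activators, 722 higher and 800 lower, and 1285 of them lacked the 9 equal signs.

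The 3 agents did not contribute equally. IFN-gamma gave the largest change for 190 of the 237 members, IL-4 for 34 and isoproterenol for 13, and isoproterenol gave the smallest for 149. The same was not counted over all tested genes, so this order is not read as particular to the members. For higher members the median change was 0.20 with IL-4, 0.42 with IFN-gamma and 0.15 with isoproterenol. For lower members it was -0.23 with IL-4, -0.48 with IFN-gamma and -0.16 with isoproterenol. Each agent alone against medium called 89 members with IL-4 (7.77% of all tested genes were called), 219 with IFN-gamma (43.1% of all) and 15 with isoproterenol (1.28% of all). Of the members, 133 were called with IFN-gamma alone, 72 with IL-4 and IFN-gamma, 10 with IL-4 alone, 7 with IFN-gamma and isoproterenol, 1 with isoproterenol alone and 7 with all 3, while another 7 were called in no single contrast.

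The mean of IL-4 and isoproterenol alone, without the IFN-gamma arrays, was called for 57 of the 237 members, 25 higher and 32 lower (2.75% of all tested genes were called). Leaving IL-4 out of the mean kept 217 members called (23.1% of all tested genes), and leaving isoproterenol out kept 229 (26.6%). A moderated F test among the 3 activators, which does not use medium, called 169 of the 237 members (49% of all tested genes). The other 68 members include genes with changes of nearly equal size and genes with too much spread to separate the agents.

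**Figure D1:**
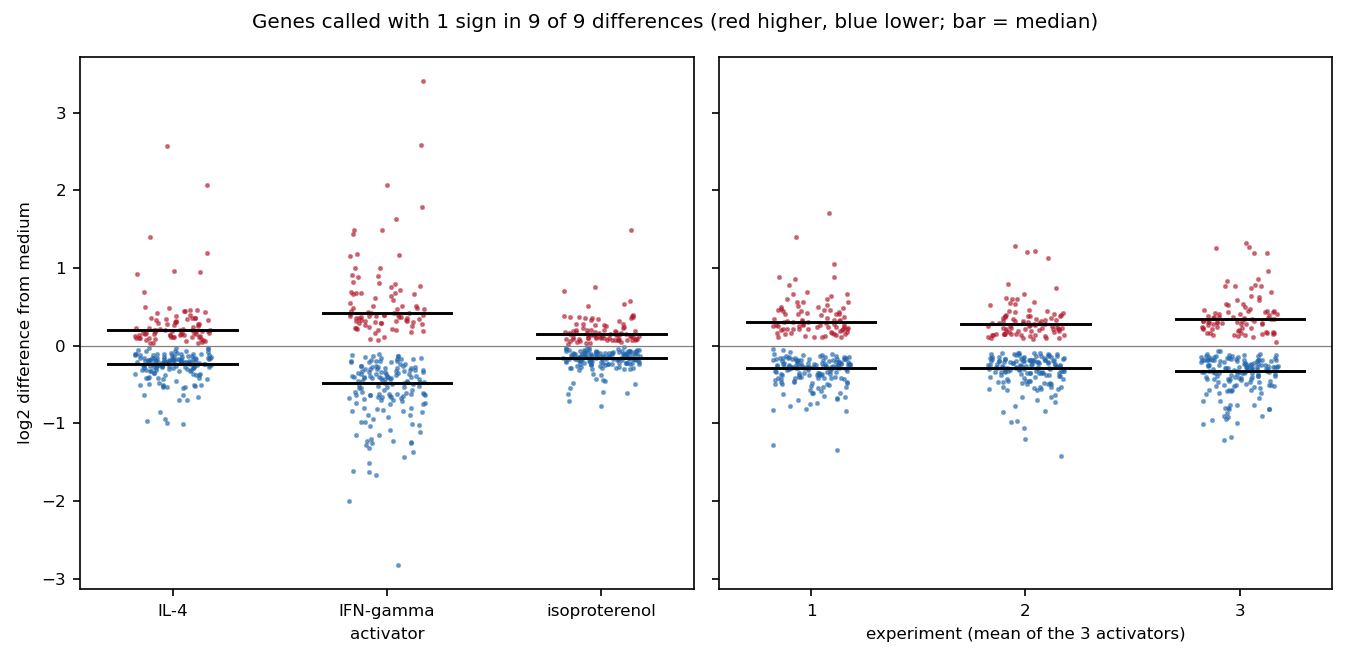
Log2 differences from medium of the 237 members, 86 higher and 151 lower, split by activator (IL-4, IFN-gamma, isoproterenol) and by experiment; each point is 1 gene and the bar is the median. IFN-gamma has the widest spread, with medians of 0.42 and -0.48, and isoproterenol the narrowest, with medians of 0.15 and -0.16.

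In 7 genes each of the 3 activators was called on its own, which is 0.0692% of the genes tested, and 99 genes had an unadjusted p below 0.05 with 1 sign in all 3. Cytip, Lrrc25 and Ms4a6d rose, and Gpx3, Mamdc2, Cdkn1c and Tmod1 fell. RefSeq's promoter table (build GRCm38.p6) holds 3 of the 7, and the windows of the riser Cytip (chr2:58160073-58160372, minus strand) and the faller Gpx3 (chr11:54902604-54902903, plus strand) are given as 1 gene for each direction, 250 bases before to 50 after the start, 5′ to 3′. Capitals mark matches to a PU.1 core (GAGGAA or its reverse complement) and, in Cytip, to a C/EBP motif (TTGCNNAA or its reverse complement).
Cytip: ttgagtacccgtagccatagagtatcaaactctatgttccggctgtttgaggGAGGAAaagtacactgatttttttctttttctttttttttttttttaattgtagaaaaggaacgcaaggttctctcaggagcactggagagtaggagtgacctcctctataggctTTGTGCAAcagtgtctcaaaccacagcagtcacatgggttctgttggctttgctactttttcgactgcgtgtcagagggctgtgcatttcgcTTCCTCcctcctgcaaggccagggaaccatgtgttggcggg
Gpx3: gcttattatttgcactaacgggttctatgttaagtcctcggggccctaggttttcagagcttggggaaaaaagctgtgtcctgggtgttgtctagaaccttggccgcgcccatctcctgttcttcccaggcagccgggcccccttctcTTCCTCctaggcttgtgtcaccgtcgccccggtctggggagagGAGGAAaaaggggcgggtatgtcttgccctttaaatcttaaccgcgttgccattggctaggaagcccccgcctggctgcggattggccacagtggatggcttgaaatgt

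The Cytip window held a C/EBP match at -83 and PU.1 core matches at -198 and 10, counted from the start. That start is the first entry for Cytip in the promoter table. It lies inside the gene's span (chr2:58129139-58195549) and not at its outer end. The Gpx3 window held PU.1 core matches at -102 and -59. The window of Tmod1 (chr4:46038972-46039271, plus strand) held none of the 6 motifs searched on both strands, the others being an AP-1 site (TGANTCA), a cAMP response half-site (TGACG), an interferon-gamma activated site (TTCNNNGAA) and a STAT6 site (TTC and GAA with 4 bases between). Over all 32851 windows of that table the PU.1 core was present in 28.3% and the C/EBP motif in 10.8%, so these matches are common. The table matched 163 of the 237 members.

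Among the windows of higher members, 83 in all, 26.5% held the cAMP response half-site, and among the 135 windows of lower members 30.4% did, against 20.8% of all windows. The interferon-gamma activated site was in 12% of the higher members' windows and 4.44% of the lower members', against 8.3% of all. The PU.1 core was in 26.5% and 26.7% of the windows of higher and lower members, against 28.3% of all. The C/EBP motif was in 6.02% and 8.89% of them, against 10.8% of all, the STAT6 site in 6.02% and 4.44%, against 6.95%, and the AP-1 site in 9.64% and 5.19%, against 7.81%. Some genes have several windows, and a match says only that the letters are present. The windows of all genes were not limited to the genes bright enough to test, while the members were, so these shares compare unlike sets of genes.

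Cytip encodes a cytohesin-interacting protein of blood cells that takes part in the control of integrin adhesion. Its normalized intensity was 3228, 5075 and 6302 (lowest, median, highest of 6 arrays) with IL-4, 2628, 3788 and 5789 with IFN-gamma and 5962, 6848 and 7219 with isoproterenol, against 1562, 2425 and 3639 in medium. Every isoproterenol array was above every medium array, while IL-4 and IFN-gamma arrays overlapped the medium range, whose 2 highest arrays were those of experiment 1. Cytip had a common change of 1.04 ± 0.16 (SE, adjusted p = 0.0011 by limma), with 0.96 for IL-4, 0.67 for IFN-gamma and 1.49 for isoproterenol. The smallest of the 9 differences was 0.09, for IFN-gamma in experiment 1, and the largest was 2.03, for isoproterenol in experiment 2. The largest lies across slides, and within slide 1 the isoproterenol difference was 0.85. Cytip was the 1 gene among the 7 with its largest change in isoproterenol.

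Lrrc25, a leucine-rich repeat membrane protein of myeloid cells, had a response of similar size with each agent. Its intensity was 407, 477 and 591 with IL-4, 466, 477 and 568 with IFN-gamma and 400.0, 455 and 507 with isoproterenol, against 332, 364 and 406 in medium. Within each experiment all 6 activator arrays were above both medium arrays. The change was 0.49 with IL-4, 0.55 with IFN-gamma and 0.37 with isoproterenol, the common change was 0.47 ± 0.05 (SE, adjusted p = 1.0e-04 by limma), and the F test among activators was not passed (adjusted p = 0.08).

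Ms4a6d encodes a membrane protein of the MS4A family found on macrophages. Its intensity was 6816, 7274 and 8820 with IL-4, 7282, 8122 and 8484 with IFN-gamma and 7556, 7801 and 8115 with isoproterenol, against 5793, 6059 and 6369 in medium. All 18 activator arrays lay above all 6 medium arrays. Its common change was 0.35 ± 0.05 (SE, adjusted p = 4.3e-04 by limma), made of 0.29 for IL-4, 0.39 for IFN-gamma and 0.36 for isoproterenol.

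Gpx3 encodes a secreted glutathione peroxidase that reduces peroxides outside the cell. Its intensity was 2491, 2999 and 3424 with IL-4, 918, 1225 and 1494 with IFN-gamma and 2517, 2869 and 3194 with isoproterenol, against 3385, 4832 and 5357 in medium. IFN-gamma arrays were far below the others, and 1 IL-4 array overlapped the lowest medium array. Gpx3 had a common change of -1.12 ± 0.10 (SE, adjusted p = 2.7e-05 by limma), with -0.65 for IL-4, -2.0 for IFN-gamma and -0.71 for isoproterenol.

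Cdkn1c encodes p57Kip2, an inhibitor of cyclin-dependent kinases. Its intensity was 898, 1235 and 1624 with IL-4, 219, 324 and 388 with IFN-gamma and 665, 1333 and 1424 with isoproterenol, against 1239, 1801 and 2224 in medium. Pooled over experiments the IL-4 and isoproterenol arrays overlapped medium, but within each experiment all activator arrays were below both medium arrays. Its common change was the largest fall among the members at -1.30 ± 0.08 (SE, adjusted p = 4.1e-06 by limma), with -0.47 for IL-4, -2.82 for IFN-gamma and -0.61 for isoproterenol.

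Mamdc2 encodes a secreted protein with MAM domains, and Tmod1 encodes tropomodulin 1, which caps the pointed ends of actin filaments. Mamdc2 intensity was 194, 223 and 233 with IL-4, 132, 139 and 152 with IFN-gamma and 191, 220.0 and 244 with isoproterenol, against 250.015, 285 and 324 in medium. Tmod1 intensity was 218, 236 and 245 with IL-4, 132, 143 and 150 with IFN-gamma and 195, 225 and 237 with isoproterenol, against 247, 279 and 301 in medium. For both genes all 18 activator arrays were below all 6 medium arrays, and with IFN-gamma only 1 of 6 arrays was above the limit. The common change was -0.89 ± 0.09 for Mamdc2 and -0.75 ± 0.06 for Tmod1 (SE, adjusted p = 4.9e-05 and 1.1e-05 by limma).

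**Figure D2:**
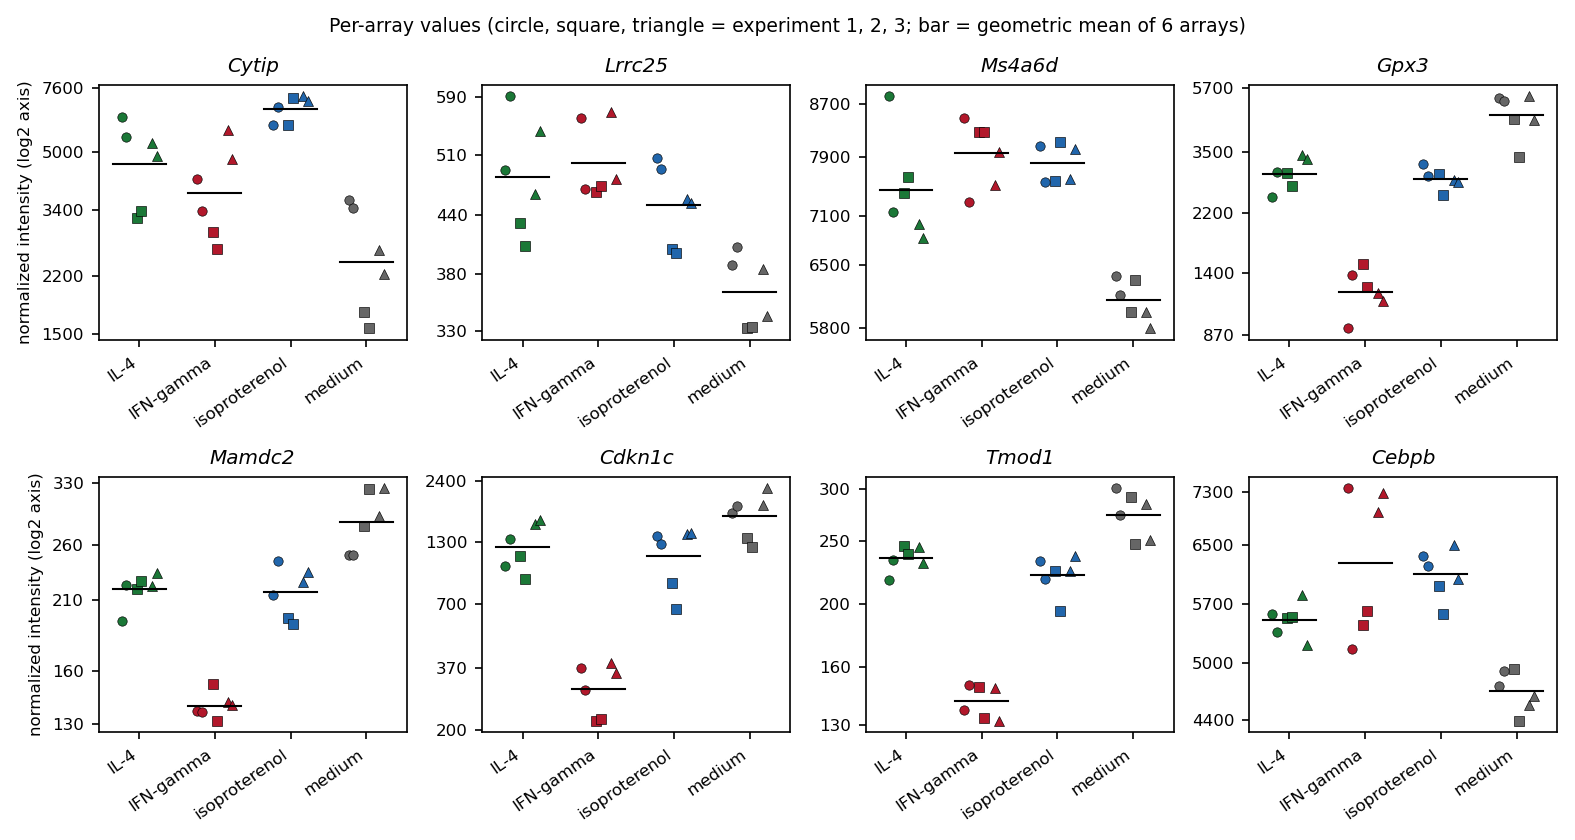
Normalized intensity on a log2 axis on each array for Cytip, Lrrc25, Ms4a6d, Gpx3, Mamdc2, Cdkn1c, Tmod1 and Cebpb, with IL-4, IFN-gamma, isoproterenol and medium from left to right; circles, squares and triangles are experiments 1, 2 and 3, and the bar is the geometric mean of 6 arrays. Ms4a6d, Cebpb, Mamdc2 and Tmod1 show no overlap between activator and medium arrays.

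With slide added as a block, all 7 remained called for the common change, for example Cytip at 0.79 (adjusted p = 0.0087) and Cdkn1c at -1.30 (adjusted p = 1.9e-04). In the isoproterenol contrast of that fit none of the 7 was called, with adjusted p between 0.065 for Cytip and 0.29 for Mamdc2 by limma. The isoproterenol changes themselves were 0.38 for Ms4a6d, 0.36 for Lrrc25, -0.67 for Gpx3, -0.56 for Cdkn1c and -0.40 for Tmod1, near those without the slide term (0.36, 0.37, -0.71, -0.61 and -0.43), while Cytip was 1.06 against 1.49 and Mamdc2 was -0.33 against -0.55. Over all genes the number called in each of the 3 contrasts was then 0 (75 with an unadjusted p below 0.05 in each), and it was 2 without experiment 1, 0 without experiment 2 and 1 without experiment 3.

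Among the other higher members, Tgm2, Usp18, LOC100046232 and Cytip had the largest common changes. Tgm2, the enzyme transglutaminase 2 and a textbook mark of IL-4-activated macrophages, had an intensity of 4571, 4853 and 5165 with IL-4, 10554, 11923 and 16510.1 with IFN-gamma and 2479, 2785 and 3284 with isoproterenol, against 1695, 2186 and 2683 in medium. Its common change was 1.39 ± 0.09 (SE, adjusted p = 3.5e-06 by limma), with 1.2 for IL-4, 2.58 for IFN-gamma and 0.40 for isoproterenol, the last not called on its own (adjusted p = 0.13). Usp18 encodes a protease that removes the ubiquitin-like ISG15 and limits interferon signalling. Its change was 3.40 with IFN-gamma, 0.33 with IL-4 and 0.07 with isoproterenol, so its common change of 1.27 ± 0.09 (SE, adjusted p = 5.4e-06 by limma) rested on 1 agent. The array name LOC100046232 has no current symbol in the table used; it changed by 2.07 with IL-4, 0.88 with IFN-gamma and 0.37 with isoproterenol, the last not called.

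Crem, Cebpb, Dusp1 and Ptger2 belong to the cAMP side of macrophage biology. Crem encodes a transcription factor that answers cAMP and can damp its own pathway. Its intensity was 173, 177 and 182 with IL-4, 230, 251 and 274 with IFN-gamma and 184, 193 and 198 with isoproterenol, against 162, 166 and 171 in medium. All 18 activator arrays were above all medium arrays, and the largest change was with IFN-gamma (0.90), followed by isoproterenol (0.33) and IL-4 (0.15, not called, adjusted p = 0.26). The common change of Crem was 0.46 ± 0.06 (SE, adjusted p = 2.3e-04 by limma).

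Cebpb encodes C/EBP-beta, a factor that macrophages use in both inflammatory and alternative activation. Its intensity was 5205, 5532 and 5807 with IL-4, 5149, 6299 and 7363 with IFN-gamma and 5566, 6109 and 6492 with isoproterenol, against 4398, 4696 and 4926 in medium. No activator array fell within the medium range. Cebpb had a common change of 0.34 ± 0.06 (SE, adjusted p = 0.0030 by limma), and with slide added as a block it was 0.29 with an adjusted p of 0.054.

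Dusp1 encodes a phosphatase that turns off MAP kinases. Its intensity was 921, 979 and 1015 with IL-4, 965, 1180 and 1435 with IFN-gamma and 1438, 1490 and 1547 with isoproterenol, against 862, 899 and 994 in medium. The isoproterenol arrays were the highest, above all medium arrays, while IL-4 and IFN-gamma arrays overlapped medium. Dusp1 had a common change of 0.42 ± 0.07 (SE, adjusted p = 0.0018 by limma), with 0.76 for isoproterenol, 0.41 for IFN-gamma and 0.10 for IL-4 (not called, adjusted p = 0.61).

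Ptger2 encodes the EP2 receptor for prostaglandin E2, which raises cAMP. It rose by 0.42 ± 0.05 (SE, adjusted p = 2.3e-04 by limma), in the order IL-4 (0.69), IFN-gamma (0.37) and isoproterenol (0.20, not called).

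Other higher genes whose smallest change among the 3 agents was among the 12 largest were Palld, Gpr35, Dock4, Timp1, Crip2 and Midn. Midn encodes a nuclear protein named midnolin; its intensity was 1171 to 1432 over the activator arrays, against 996 to 1101 in medium, without overlap, and its common change was 0.29 ± 0.05 (SE, adjusted p = 0.0019 by limma). Dock4, an exchange factor for small GTPases of the cytoskeleton, rose by 0.33 and Palld, the actin-bundling protein palladin, by 0.32. Crip2, a LIM domain protein, rose by 0.31. Timp1, an inhibitor of metalloproteinases, rose by 0.29, but its 3 differences in experiment 3 were 0.03, 0.06 and 0.06. Gpr35, a G-protein-coupled receptor, rose by 0.48, with 0.79 for IFN-gamma. With slide as a block Palld, Gpr35 and Crip2 had changes of 0.21, 0.37 and 0.36 and were not called (adjusted p = 0.13, 0.11 and 0.053 by limma). Without the second IFN-gamma array of experiment 1, Timp1 had a change of 0.25 and was not called (adjusted p = 0.067).

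Cx3cr1, the receptor of fractalkine and a mark of resident macrophages, fell. Its intensity was 137, 140.04 and 148 with IL-4, 129, 153 and 167 with IFN-gamma and 146, 155 and 200.04 with isoproterenol, against 172, 197 and 379 in medium. IL-4 arrays were all at or below the limit, so that fall is a bound of at least 1.43-fold lower on the normalized intensity scale (geometric means 141.4 with IL-4 and 212.8 in medium), and 4 of 6 arrays with each other agent were above the limit. The highest medium value, 379, was the second array of experiment 2 and the others were 172 to 203. The common change was -0.80 ± 0.12 (SE, adjusted p = 8.3e-04 by limma), and the isoproterenol contrast was not called (-0.63, adjusted p = 0.07).

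Tnni2, the fast skeletal muscle troponin I, fell by 0.99 with IL-4 and 1.23 with IFN-gamma on the log2 scale, and its change with isoproterenol was -0.32 (adjusted p = 0.057 by limma). Rasgrp3, an exchange factor that activates Ras proteins, had a common change of -0.81 ± 0.11 (SE, adjusted p = 5.5e-04 by limma), most of it from IFN-gamma (-1.63). Lbr, a receptor of the inner nuclear membrane, had values of -0.42 with IL-4, -0.40 with IFN-gamma and -0.47 with isoproterenol, of which only IFN-gamma was called, and its common change of -0.43 had an adjusted p of 0.010. With slide as a block Lbr had a change of -0.38 and an adjusted p of 0.055. The array name ENSMUSG00000043795, which has no current symbol in the table used, changed by -0.66, and with slide as a block by -0.56, which was not called (adjusted p = 0.13).

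H2ac23 and H2ac15 encode replication-dependent H2A histones, which have near-identical copies that a probe may not separate, so which copy was measured is uncertain. Their common changes were -0.52 ± 0.16 and -0.61 ± 0.19 (SE, adjusted p = 0.047 and 0.049 by limma). With IFN-gamma the difference in experiments 1, 2 and 3 was -0.23, -0.28 and -1.28 for H2ac23 and -0.45, -0.14 and -1.49 for H2ac15. The 2 IFN-gamma arrays of experiment 1 disagreed, at 1644 and 11000.0 units for H2ac23 and 309 and 3454 for H2ac15, the higher being the array that stood apart. Without it the common changes were -0.68 and -0.82, and neither gene was called (adjusted p = 0.066 and 0.10 by limma). With slide as a block the changes were -0.26 and -0.33, and neither was called (adjusted p = 0.42 and 0.41). Of 23 cell-cycle genes tested, 0 were called by limma for the common change and 5 had an unadjusted p below 0.05, with a median change of -0.26. That median was not shared by the agents, with -0.32 for IL-4, 0.10 for IFN-gamma and -0.57 for isoproterenol, and none of these genes had 9 equal signs.

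**Figure D3:**
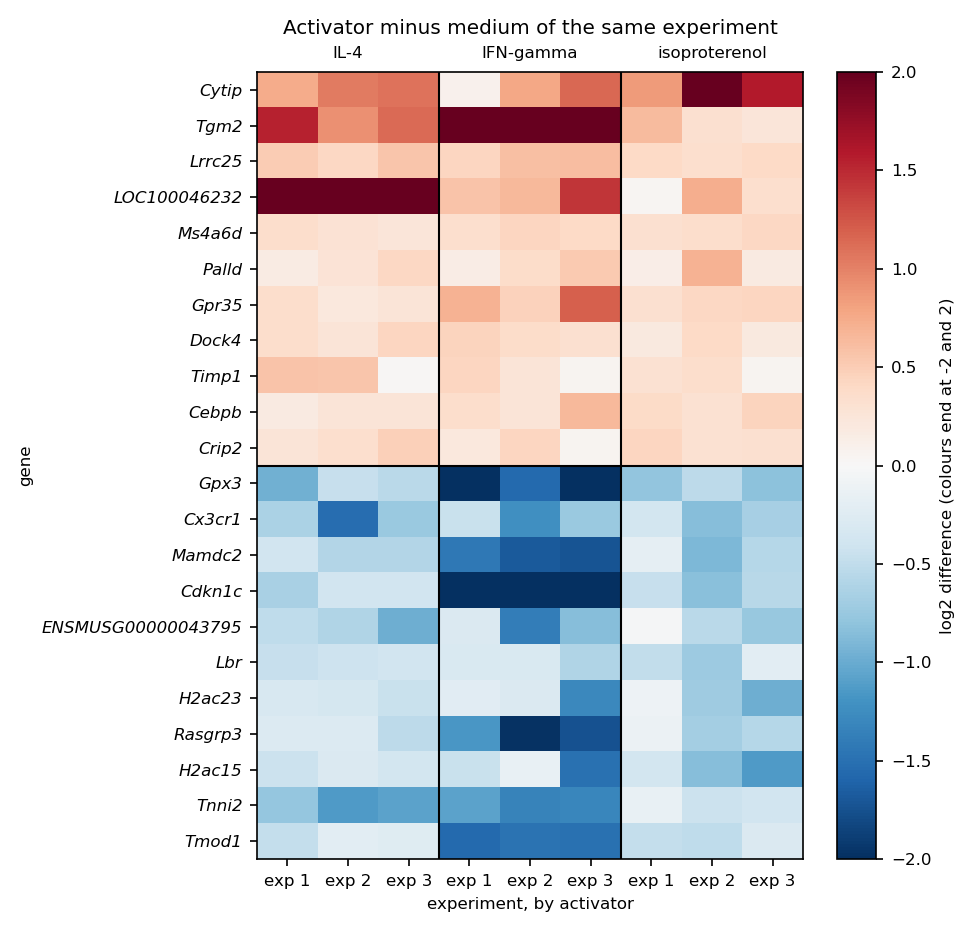
Heat map of the 9 log2 differences from medium (IL-4, IFN-gamma and isoproterenol, each in experiments 1, 2 and 3) for the 11 higher and 11 lower members with the largest smallest change; colours end at -2 and 2. Lrrc25 and Ms4a6d are even across columns, while Tgm2, Gpx3 and Cdkn1c are strongest in the IFN-gamma columns.

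At the threshold, Prr16 and Vps33a were just inside with adjusted p of 0.0496 and 0.0498, and Iqcb1 and Agpat3 were just outside with 0.05004 and 0.0508. Their common changes were -0.18, -0.15, -0.15 and 0.18, and all 4 had 9 differences of 1 sign. For Vps33a the isoproterenol change was only -0.01 (adjusted p = 0.97 by limma), and the isoproterenol arrays (1096 to 1170 units) lay within the medium range (1092 to 1184). With slide as a block Prr16 and Vps33a were not called (adjusted p = 0.38 and 0.28 by limma).

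Lists of genes of known roles were read against the 15.1% of all tested genes that were called. Genes of alternative activation were called higher in 12 of 17 and lower in 0, and Chil3 and Tgm2 had 9 equal signs. Only 7 of the 17 were above the limit on all 24 arrays, and of those 3 were called higher in a fit of such genes, since a gene may pass the filter through the group where it is high. Chil3, the chitinase-like protein Ym1, rose with IL-4, at least 3.27-fold higher on the normalized intensity scale, a bound because medium was not above the limit on any of 6 arrays (geometric means 487.3 with IL-4 and 139.2 in medium); with IFN-gamma 1 of 6 arrays and with isoproterenol 0 of 6 were above it, so its other signs lie near background. Genes of classical activation were called higher in 15 of 17 with 0 of them meeting the sign rule, type I interferon-stimulated genes in 13 of 16 with Usp18 as the only member, and MHC class II genes in 8 of 12 with none. Over genes above the limit on all arrays these 3 counts were 10 of 11, 9 of 10 and 7 of 10.

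Genes of the cAMP and CREB list were called higher in 5 of 15 and lower in 0, with 3 members (Crem, Cebpb, Dusp1) and a median of 0.30. The list's median was -0.01 with IL-4, 0.28 with IFN-gamma and 0.50 with isoproterenol, so as a whole it did not rise with IL-4. Of 20 immediate early and MAP kinase feedback genes 6 were called higher, and Dusp1 was the only one with 9 equal signs. Of 22 purinergic and chemoattractant G-protein-coupled receptors 6 were called higher and 3 lower, with the members Gpr35 and Ptger2 among those higher. The stress-response list of 19 genes had 5 called higher and 1 lower, with the members Creld2 and Ddit3. Creld2, an endoplasmic reticulum protein induced by stress, had changes of 0.45, 0.33 and 0.08 with IL-4, IFN-gamma and isoproterenol, and Ddit3, the stress factor CHOP, had 0.03, 0.82 and 0.08. Ddit3 was not called with slide as a block or without experiment 3 (adjusted p = 0.19 and 0.2 by limma).

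More genes were called lower than higher in the scavenging, lysosome and macrophage identity lists. The fall was not shared by the agents, and no median of these lists fell with isoproterenol. With IL-4, IFN-gamma and isoproterenol the medians were -0.08, -0.13 and 0.06 for scavenging and 0.002, -0.215 and 0.029 for lysosome. For macrophage identity they were -0.04, -0.33 and 0.05. Of 22 scavenging and lipid handling genes 9 were called lower and 3 higher, and Trem2 was the only member. Trem2, a lipid receptor of macrophages, had a common change of -0.43 with -1.11 for IFN-gamma, -0.07 for IL-4 and -0.11 for isoproterenol. With slide as a block Trem2 had a change of -0.34 and was not called (adjusted p = 0.14 by limma). Of 28 lysosome genes 8 were called lower and 2 higher, none with 9 equal signs. Slc2a3, the glucose transporter GLUT3, was the only member among 20 glycolysis and hypoxia genes and fell by 0.38 on the log2 scale, with changes of -0.29, -0.63 and -0.22 for IL-4, IFN-gamma and isoproterenol.

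Itgb2, the common beta chain of leukocyte integrins, was the only member among 12 Fc and complement receptor genes, with a change of 0.16, and it was not called without the second IFN-gamma array of experiment 1 (0.18, adjusted p = 0.061 by limma). Itgb2 was also not called with slide as a block or without experiment 3 (adjusted p = 0.16 and 0.17 by limma). No heat shock gene of 12 and no ribosomal protein gene of 20 was called by limma for the common change, with 0 and 8 of them at an unadjusted p below 0.05; in the fit of genes above the limit on all arrays 2 of 19 ribosomal protein genes were called lower. Of 24 cytokine and growth factor receptors 3 were called higher and 4 lower, of which only Cx3cr1 met the sign rule. Of 16 macrophage identity genes 2 were called higher and 5 lower, with the members Cx3cr1 and Trem2. Of 24 adhesion, cytoskeleton and motility genes 5 were called higher and 5 lower, with Cytip as the only member. No member was found among 18 Toll-like receptor genes (4 higher, 4 lower), 21 NF-kB inflammatory genes (6 higher, 1 lower), 15 NRF2 antioxidant genes (4 higher, 3 lower), 26 respiratory chain genes (4 higher, 0 lower) or 19 cholesterol synthesis genes (1 higher, 2 lower).

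**Figure D4:**
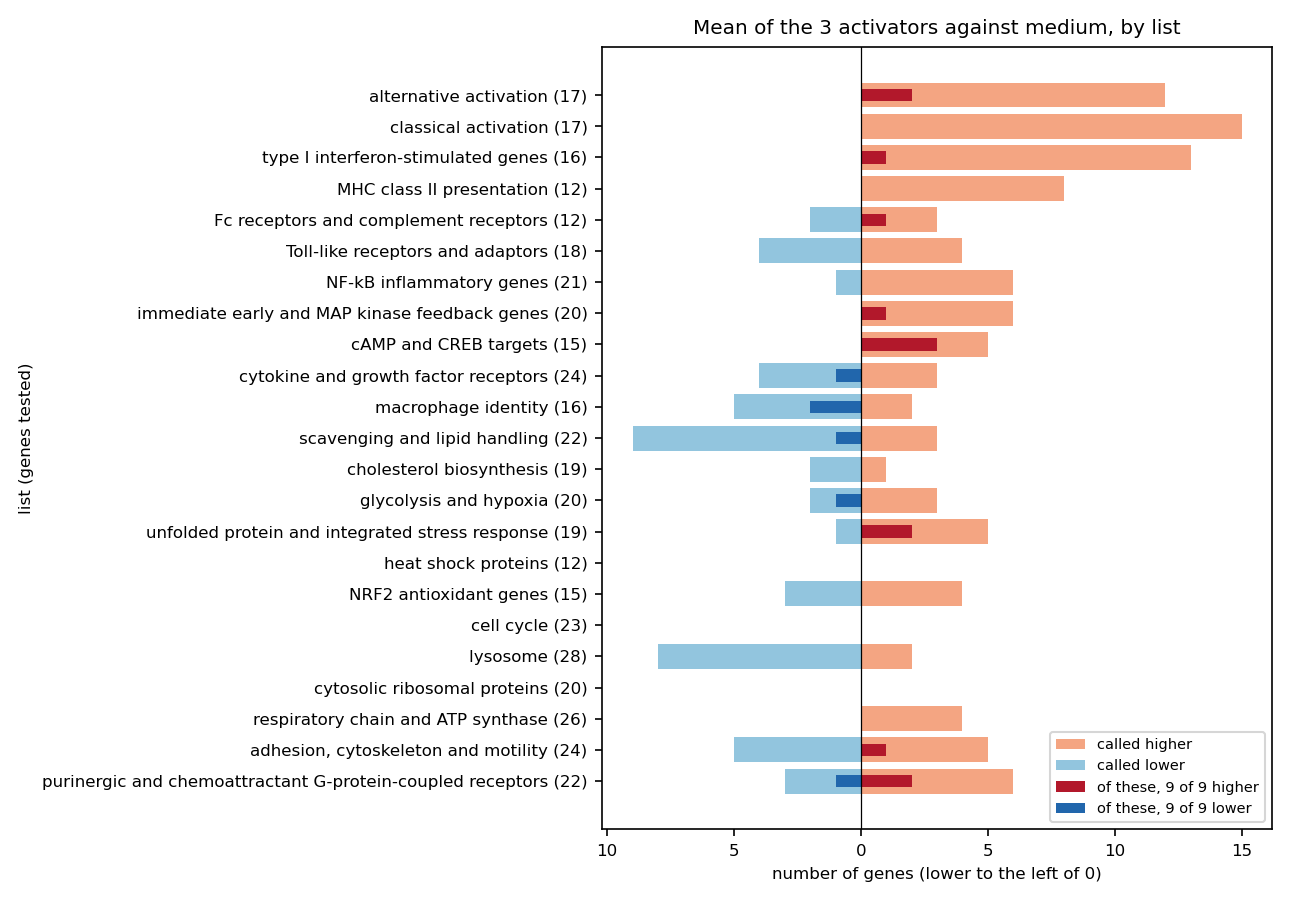
For each gene list, the number of genes called higher and lower for the mean of the 3 activators, with inner bars for those with 9 of 9 equal signs. Lists of classical and type I interferon genes have many called genes and few or 0 with 9 equal signs. Of 15 cAMP genes tested 5 are called, and 3 of these have 9 equal signs. Over all tested genes 237 of 1522 called genes have them.

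Activator and medium arrays of the same experiment did not overlap in any of the 3 experiments for 42 genes (16 higher, 26 lower, 0.415% of the genes tested), all of them members. Across all 24 arrays 13 genes had no overlap, 5 higher and 8 lower, also all members, and nothing is read from that since the sign rule used these values. The largest common change was seen in experiment 1 for 92 members, in experiment 2 for 39 and in experiment 3 for 106. For higher members the median change was 0.31, 0.28 and 0.35 in experiments 1, 2 and 3, and for lower members -0.28, -0.28 and -0.33.

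The confounding of experiment 3 with slide was followed through the members. With slide and experiment as blocks 108 of the 237 were still called for the common change (8.38% of all tested genes were), and without experiment 3 the count was 135 (9.03% of all). The fit without experiment 3 still held the isoproterenol difference of experiment 2, which lies across slides. Within slide 1, experiment 1 alone with its arrays as replicates, 44 members were called (4.48% of all), and within slide 2, which holds IL-4 and IFN-gamma only, 156 (16.9%). Over all genes the number called was 759 without experiment 1, 935 without experiment 2 and 913 without experiment 3, against 1522 with all. Of the 24 members, 12 of each direction, whose smallest change among the agents was largest, 16 were called with slide as a block and 20 without experiment 3. The share that comes from the slide cannot be told apart from the agents in experiment 3, or from isoproterenol in experiment 2.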

How the data were processed

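RNA of 24 arrays of mouse BMDMs was measured on Illumina beadchips. The values used were normalized intensities, deposited by the authors as the series table of 18132 genes; per the submitters' processing notes GenomeStudio was used, and its version and the normalization are not given in the sources used here. A raw table of 25697 probe intensities deposited by the authors served as an alternative and carries no gene names. No column belonged to another series. From these values, background was estimated as the mode at 137.3 units (SD 0.0727 log2), the detection limit was 149.1 units (1.645 SD above), and the 10111 genes above it on at least 6 arrays were tested while 8021 were too dim. Background was adjusted by normexp with an offset of 50 and values were put on the log2 scale, both arrays of an experiment and group were averaged to 12 values, and limma 3.58.1 (R 4.3.3) was fitted with lmFit and eBayes (residual df 6, prior df 4.96). The fit was tested on simulated data. Intensities carry no counts, and since the arrays were averaged, the number of experiments limits the precision.

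Samples were paired by the experiment number of the labels, and 16 of 18 within-experiment correlations of deviations were over 0.1 (0.0269 to 0.775). Those not over it were medium with IL-4 (0.047) and medium with IFN-gamma (0.0269) in experiment 3, where medium lay on another slide. Medium with isoproterenol in experiment 3 was at 0.186. Of the array names 16965 matched a current symbol, 2660 of them by synonym, and 1167 kept the array's name. Named genes were, among members, the 12 of each direction with the largest smallest activator change, the 4 of each with the largest common change, genes called in each contrast, up to 3 of each list, and the nearest to the threshold on both sides. The members, lists and tests were chosen with earlier results of these data known. Filter, background, blocks, slides, single arrays, left-out experiments and activators were tried as alternatives. 1 gene that the rule names is not reported here.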

Additional observations from a re-analysis of the deposited data

Results flagged for a closer look

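Of 152 groups of 6 arrays of the named genes, 6 (3.95%) held 1 array far from the other 5 by Dixon's criterion. Its chance rate of about 1 in 20 is for 6 independent values, and these arrays come in pairs by experiment, so the 2 shares cannot be compared. In the IL-4 group Palld was 224.9 units on the second array of experiment 2 (others 269.9 to 296.4), Midn was 1432 on the first array of experiment 1 (others 1226 to 1295), and Mamdc2 was 193.8 on the same array (others 219.5 to 233.5). In the IFN-gamma group the second array of experiment 1, whose correlation with its partner was 0.977, was low for Usp18 at 2293 (others 3775 to 4809) and for Ddit3 at 698.2 (others 1079 to 1241). In medium Cx3cr1 was 379.1 on the second array of experiment 2 (others 172.4 to 203.4).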

How the results depend on the processing

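The values with the experiment as a replicate block were 1522 genes called for the common change, 421 with 9 equal signs, 237 with both, 7 called in each contrast and 4951 differing among activators. Without the pairing (no replicate block) they were 955 called, 156 with both and 3 in each contrast. Slide and experiment as blocks gave 847, 108 and 0. Within slide 1 they were 453 called, 4268 with 3 equal signs, 0 in each contrast and 2356 differing among activators. Within slide 2, which holds no isoproterenol arrays, they were 5678 with 2 equal signs, 1204 with both and 204 in each of 2 contrasts, so the 204 cannot be set against the 7. Both slide fits took the arrays of 1 experiment as replicates, so their p-values do not cover the spread among experiments. Using the 5 differences within a slide gave 1924 with equal signs and 546 with both. Leaving out 1 experiment gave 759 to 935 called, 995 to 1192 with 6 equal signs, 218 to 282 with both, 0 to 2 in each contrast and 3586 to 4163 differing among activators. Without IL-4 the counts were 2339, 1052 and 585, without IFN-gamma 278 and 1159, and without isoproterenol 2694, 1810 and 1238. No filter on dim genes gave 647 with equal signs, single arrays in place of averages gave 14 in each contrast, and a change of at least 1.5-fold gave 257, 35 and 2. Fewer differences leave more genes with equal signs by construction; the other causes were not tested. Of 602 values of named genes under these settings, 484 kept their side of the threshold, 105 lost the call, 13 gained it and 0 changed direction, the direction of members being set by their choice. The probe table without gene names and the mean without 1 agent gave no values for some results. The 3 experiments and low signal limit what could be called.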

Other observations

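Members outside the naming rule, picked here after their values were seen, include genes of oxygen sensing, cell death and growth factor supply. Hif1a, the oxygen-regulated factor, had a common change of 0.59 ± 0.09 (SE, adjusted p = 0.0014 by limma), with 0.10 for IL-4, 1.49 for IFN-gamma and 0.17 for isoproterenol. Bcl2a1d, a gene of the anti-apoptotic A1 family whose copies are nearly identical, changed by 0.44 with 0.42, 0.70 and 0.21 for the same 3 agents. Gnb4, a G-protein beta subunit, changed by 0.55, and its 18 activator arrays did not overlap the 6 medium arrays. Sod1, the cytosolic superoxide dismutase, changed by -0.38, with -0.42 for IL-4, -0.53 for IFN-gamma and -0.20 for isoproterenol, and its arrays did not overlap either. Parp1, a DNA damage sensor, changed by -0.35 without overlap. Vegfb and Pdgfb, growth factors of vessels and mesenchyme, both changed by -0.59. Pdgfb was at -0.28 with IL-4, -1.43 with IFN-gamma and -0.06 with isoproterenol. Adam17, the protease that sheds tumour necrosis factor, changed by -0.37 with -0.25 for IL-4, -0.62 for IFN-gamma and -0.24 for isoproterenol.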
